A study of Homo sapiens with 4 samples.

Results

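The genes DPPA2, DPPA3, DPPA4 and DPPA5, each named developmental pluripotency associated, were followed through the deposited OGA region lists of naive human embryonic stem cells. The genes were chosen with earlier results of these data known. Every region whose assigned gene was among these 4 was taken, with no threshold and no choice of regions by measured values. This gave 9 of 8977 control regions and 4 of 1334 knockdown regions. OGA takes O-linked N-acetylglucosamine, a single sugar, off serine and threonine of proteins in the nucleus and cytosol. Its chromatin occupancy was profiled by CUT&Tag, in which a transposase tethered through an antibody cuts and tags nearby DNA. All 4 libraries came from H9, an established human embryonic stem cell line, with no treatment listed. The cells were in naive culture in PXGL, a serum-free medium with PD0325901, XAV939, an inhibitor of protein kinase C and human LIF on mouse feeder cells. The control group (2 libraries) was labelled wild type, and the other group (2 libraries) carried an OGA knockdown, written shOGA in the titles. The extent of the knockdown, the number of clones and whether replicates were separate cultures are not stated in the labels.

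DPPA2 and DPPA4 are neighbouring genes whose products are paired nuclear proteins with a DNA-binding SAP domain. In mouse embryonic stem cells they act at developmental promoters and upstream of genes of the early embryo. DPPA3, also called STELLA, is a maternal factor that in mouse oocytes and embryos protects DNA from methylation changes and restrains UHRF1, the adaptor of the maintenance methyltransferase. DPPA5, also called ESG1, is a small RNA-binding protein of the KH domain family. DPPA3 and DPPA5 are commonly used markers of naive human cells.

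The lists give each region's position and width and the class and distance of the nearest transcription start site, but no count, signal or p-value. Each listed region joins at least 1 numbered peak from each of both replicates of its group. A region missing from a list therefore means that no peak pair was listed there, and depth was unknown. If every peak number was used, at most 9.53% and 9.72% of peaks in knockdown replicates 1 and 2 entered a listed region. In control replicates 1 and 2 the shares were at most 38.5% and 32.5%. Absence from the knockdown list thus does not show that neither library had a peak there. No value per library could be averaged or tested, so the comparisons below compare lists of regions. In the control list 6 of 6 pluripotent cell markers and 5 of 6 naive markers (DPPA3 and DPPA5 among them) had a region. So did 1 of 4 markers of fibroblasts and 1 of 4 of trophectoderm, beside 21.7% of protein-coding genes. In the knockdown list the counts, in the same order, were 3 of 6, 3 of 6, 0 of 4 and 1 of 4, beside 3.99%. Occupancy does not measure expression, so these counts describe the lists and do not establish the cell type.

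The 250 bases upstream of the start sites of DPPA2, DPPA3 and DPPA5 are printed 5′ to 3′ from the RefSeq promoter table of GRCh38.p14, because the lists differ in how much of each window they cover. The lists use GRCh38.p13. Gene spans were the same in both for 1318 of 1318 genes with a single shared transcript. Capitals mark bases inside a listed region. For DPPA2 they mark the 198 bases covered in both lists, as the control region covers all 250, and for DPPA3 they mark the 132 bases covered in control. For DPPA5 no base of the window is covered in either list. The windows are chr3:109316518-109316767 on the minus strand for DPPA2, chr12:7711183-7711432 on the plus strand for DPPA3 and chr6:73354277-73354526 on the minus strand for DPPA5.
DPPA2: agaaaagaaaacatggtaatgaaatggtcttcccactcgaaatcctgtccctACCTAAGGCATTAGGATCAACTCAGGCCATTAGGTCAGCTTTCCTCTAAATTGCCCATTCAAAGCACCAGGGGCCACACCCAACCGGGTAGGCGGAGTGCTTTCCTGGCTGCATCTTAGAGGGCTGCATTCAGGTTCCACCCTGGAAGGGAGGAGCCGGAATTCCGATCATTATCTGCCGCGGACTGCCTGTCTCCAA
DPPA3: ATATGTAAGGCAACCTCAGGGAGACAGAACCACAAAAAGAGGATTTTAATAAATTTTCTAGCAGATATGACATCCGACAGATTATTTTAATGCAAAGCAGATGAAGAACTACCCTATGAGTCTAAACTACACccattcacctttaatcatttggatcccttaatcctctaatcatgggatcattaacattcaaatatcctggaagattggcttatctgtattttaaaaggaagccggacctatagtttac
DPPA5: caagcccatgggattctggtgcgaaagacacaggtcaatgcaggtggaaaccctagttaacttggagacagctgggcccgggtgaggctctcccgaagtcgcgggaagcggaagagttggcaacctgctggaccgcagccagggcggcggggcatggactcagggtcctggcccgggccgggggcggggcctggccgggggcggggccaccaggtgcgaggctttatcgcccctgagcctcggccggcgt

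The 3 windows differed in base composition. The DPPA5 window was the richest in G and C at 68.8%, with 19 CpG dinucleotides, against 52% and 7 for DPPA2 and 35.6% and 2 for DPPA3. Over 35116 promoter windows of the same length the medians were 58% and 11 CpG. The DPPA4 window of the same table, with 0 covered bases, had 43.2% and 3 CpG. Whether coverage went with CpG content was not tested, as the windows were few and that of DPPA4 belongs to another start site. A search on both strands for the octamer ATGCAAAT, the SOX motif CTTTGT, the GC box GGGCGG, the CCAAT box CCAAT, the TATA box TATAAA and the E-box CACGTG found few matches. No motif overlapped another. DPPA5 held 3 GC boxes, at 109, 69 and 52 bases before the start site, and 42.6% of all windows held at least 1. DPPA3 held 1 reverse CCAAT box, 45 bases before the start site and outside the covered bases, and 32.0% of all windows held it. None of these 6 motifs was found in the DPPA2 window. The octamer, bound by OCT4-type factors, was in 1.63% of all windows and the SOX motif in 13.7%, and neither was in any of the 3 windows. Of the others the TATA box was in 10.7% and the E-box in 6.34%. For DPPA4 the table's window belongs to a start site other than that of the transcript assigned in the lists, so it is not printed, and none of its bases lay in a listed region.

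DPPA2 was the member whose start site lay in a region of both lists. In control the region covered chromosome 3 positions 109316213 to 109317050 (GRCh38.p13, 838 bp) and included the start site. In the knockdown list the region covered 109316211 to 109316715 (505 bp) and also included it. The edges on the gene side thus differed by 2 bp, while the upstream edge lay 335 bp nearer to the gene in the knockdown. The shared stretch was 503 bp, which was 99.6% of the knockdown region and 60.0% of the control region. Of 922 overlapping pairs in the whole series, 6.07% had an edge that agreed within 10 bp. The DPPA2 start region was the narrowest of the control DPPA regions, and 3.94% of all control regions were narrower. In the knockdown list 18.8% of regions were narrower than that at DPPA2.

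A further control region was assigned to DPPA2 and lay 7119 bp upstream of a start site, at 109323708 to 109326013 (2306 bp). The file labels it as downstream within 1 kb, and the gene end in question is that of DPPA4, not of DPPA2. Both genes read in the same direction with 9624 bp between the DPPA2 start site and the 3′ end of DPPA4, and the region stopped 127 bp short of that end. It could equally be described as lying between both genes, and 58.3% of the 120 control regions with a downstream label lay within 3 kb past the end of their own assigned gene. No knockdown region overlapped it.

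DPPA4 had a control region over the start site of the transcript assigned in the lists, and another far upstream. The promoter window described above, at 109337547 to 109337796 and for another DPPA4 start site, lay outside both regions. The start site region covered 109338475 to 109340957 (2483 bp) and joined 2 peaks of replicate 1 with 1 peak of replicate 2, the only DPPA region with more than 1 peak from the same replicate. The upstream region covered 109355135 to 109357913 (2779 bp). It lay 15500 bp upstream of the start site and was the widest of all 13 DPPA regions, with 91.5% of control regions narrower. The distal region, and not that over the start site, was met by a knockdown region, at 109355800 to 109356323 (524 bp). This knockdown region lay wholly inside the control region, and its control counterpart was 5.30 times as wide. Over all overlapping pairs the median ratio of control to knockdown width was 2.47 (interquartile range 1.74 to 3.56), and 83.8% of pairs had the knockdown region wholly inside.

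DPPA4 also had the single DPPA region that was listed in the knockdown without a control overlap. It covered 109365270 to 109366128 (859 bp), 25635 bp upstream of the start site and 8946 bp beyond the other DPPA4 knockdown region. In that list 19.3% of regions were labelled distal intergenic, and 74.3% of these overlapped a control region. The label does not mean far from genes, as the knockdown region 5295 bp from ARGFX also bears it. It lies in a gap of 36691 bp between control regions. By the peak numbers described below, that gap held 1 peak of control replicate 1 and 2 of replicate 2, at unknown positions. The assignment to DPPA4 follows from the nearest start site and does not show that the region acts on it.

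DPPA3 had 3 control regions, all upstream of the gene, and 0 knockdown regions. On chromosome 12 they covered 7704133 to 7706643 (2511 bp), 7707287 to 7709430 (2144 bp) and 7709931 to 7711314 (1384 bp), and lay 4790, 2003 and 119 bp from the start site. The regions became narrower towards the gene, and the nearest stopped 119 bp before the start site, so that no region covered the start site or the transcribed part. They stood close together, with gaps of 643 and 500 bp. Among all control regions 9.11% had their nearest neighbour within 1000 bp, and the median gap to the nearest region was 20075 bp. The DPPA3 regions also had 15 or 16 other control regions within 100 kb, against a median of 2, and at least 99.2% of control regions had fewer. These counts include the other DPPA3 regions, and the remaining neighbours were assigned to APOBEC1, GDF3, CLEC4C, NANOGNB and NANOG. Within 100 kb of DPPA3 the control regions covered 17.6% of the sequence, and the 1 knockdown region there, at NANOG, overlapped no control region.

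DPPA5 had 2 control regions, and both lay past the end of the gene. On chromosome 6 the nearer covered 73350664 to 73352576 (1913 bp). The file labels it as promoter because it is 1700 bp from the start site, yet DPPA5 is only 1214 bp long and reads towards the region, which began 487 bp beyond the 3′ end. Such a promoter label for a region wholly past the gene was given to 116 of 4212 control promoter regions (2.75%). The farther region covered 73347561 to 73350146 (2586 bp), 517 bp from the nearer. It was met by the knockdown region at 73349150 to 73350423 (1274 bp), which shared 997 bp with it and extended 277 bp towards the gene. This was the widest DPPA region in the knockdown list, and 93.7% of knockdown regions were narrower. The DPPA5 start site and the whole gene were thus outside every listed region.

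**Figure D1:**
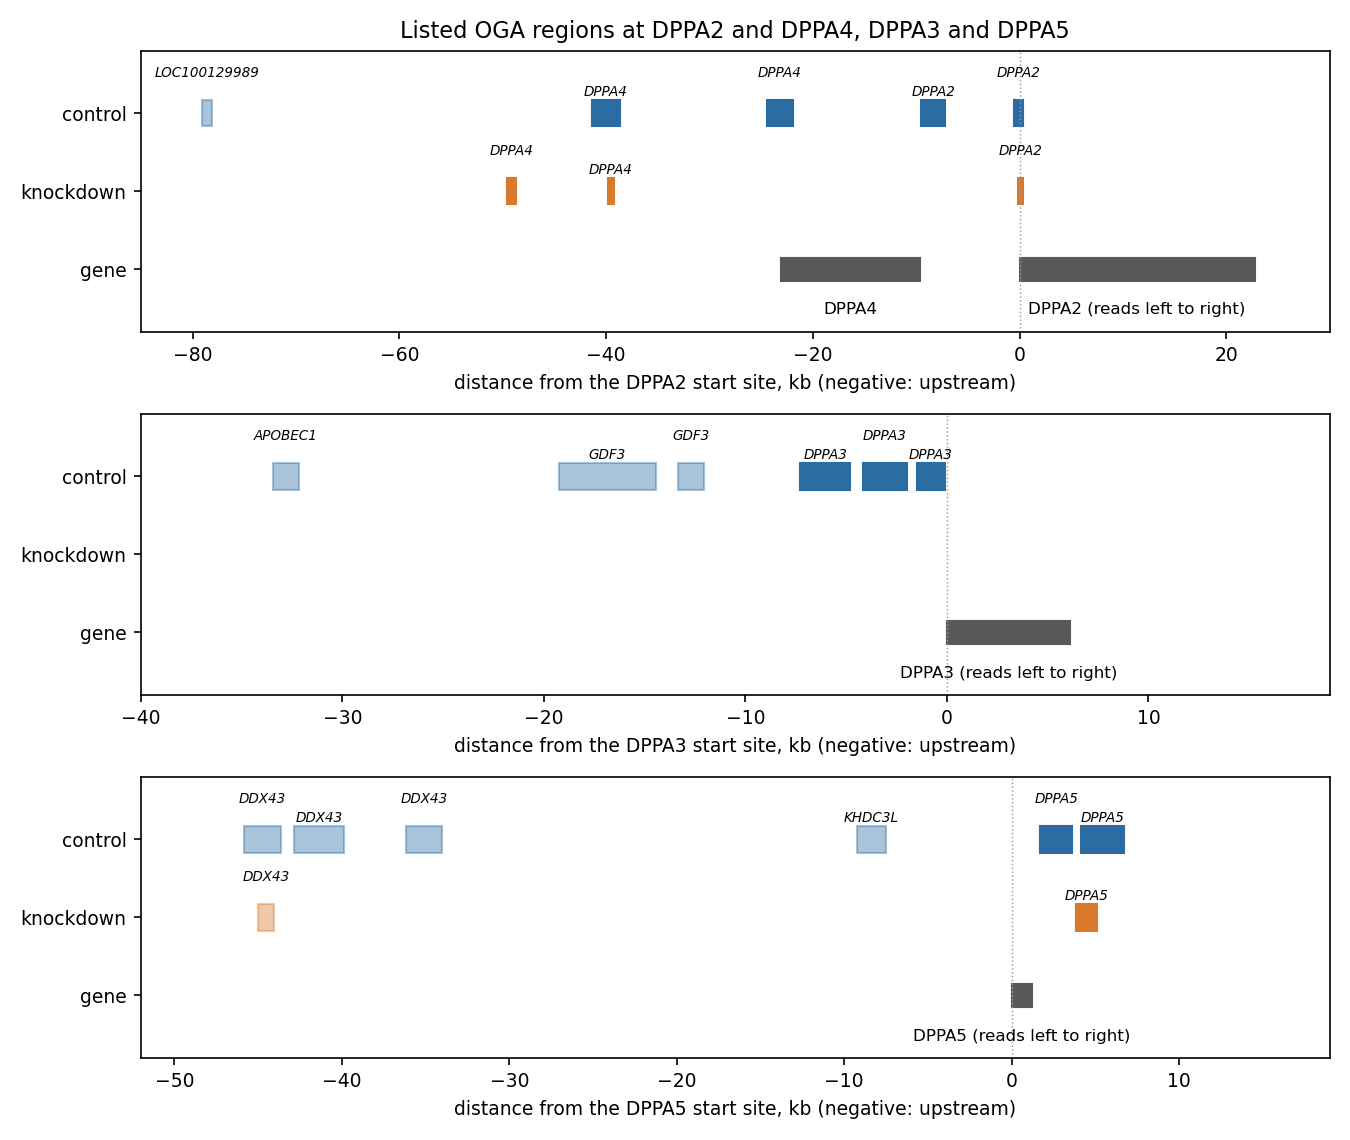
Maps of the listed regions around DPPA2 and DPPA4 (top), DPPA3 (middle) and DPPA5 (bottom), with the distance from the start site in kb on the x axis and the control list, the knockdown list and the gene bodies on separate rows. Blue boxes are control regions and orange boxes knockdown regions, dark where assigned to a DPPA gene and pale otherwise, each labelled with its assigned gene; DPPA3 has 3 control regions before its start site and no knockdown region in the span drawn.

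The DPPA regions were mostly wide for the control list. Their widths ran from 838 to 2779 bp with a median of 2306 bp, against 1577 bp over all control regions (interquartile range 1245 to 2060), and 7 of 9 were above that median. In the knockdown list the widths were 505, 524, 859 and 1274 bp, with 2 of 4 above the median of 727 bp. Control regions over a start site were listed at DPPA2 (838 bp) and DPPA4 (2483 bp). By class, 5 of the 9 control regions were labelled promoter (46.9% of all control regions), 2 distal intergenic (20.2%) and 2 downstream (1.34%), and 0 lay in an intron, exon or UTR, where 31.6% of all control regions lay. Of the 4 knockdown regions 1 was a promoter region (39.1% of all knockdown regions), 2 were distal intergenic (19.3%) and 1 was downstream (0.975%). The promoter and distal intergenic counts in control were near the shares of the list.

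**Figure D2:**
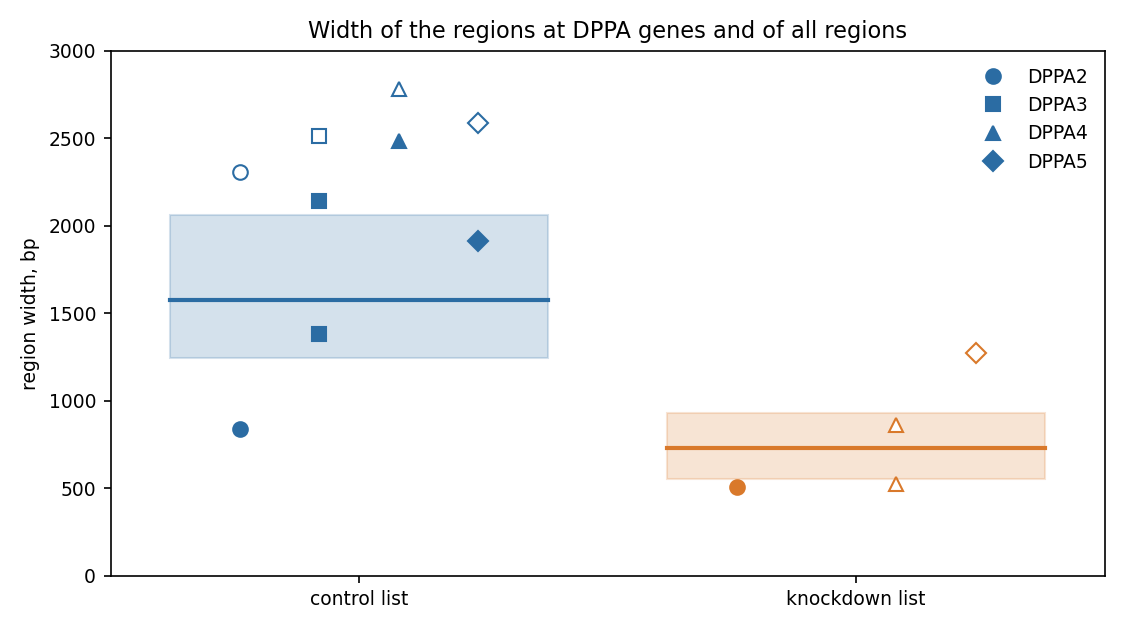
Width in bp of each region at DPPA2, DPPA3, DPPA4 and DPPA5 in the control list (blue) and the knockdown list (orange). Filled symbols are promoter regions and open symbols other regions; the bar is the median and the box the interquartile range over all regions of the list (medians 1577 and 727 bp), and the control symbol at 838 bp is the DPPA2 start region.

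Set side by side, 3 of the 9 control DPPA regions shared 1 bp or more with a knockdown region. This was 33.3% (95% interval by Wilson's method 12.1 to 64.6), where the share over all control regions was 10.0%. The interval covers counting error only. The overlapped regions were 1 each at DPPA2, DPPA4 and DPPA5, and 0 of 3 at DPPA3. In the other direction 3 of 4 knockdown DPPA regions overlapped control (75%, interval 30.1 to 95.4), beside 69.0% of all knockdown regions. The latter shares are close. Overlap in the control list went with width: 15.0% of control regions of 2000 bp or more were overlapped, 8.28% of those from 1000 bp to under 2000 bp and 7.61% of those under 1000 bp. Of the DPPA regions, 6 of the 9 fell in the widest of these classes, and the DPPA2 start region in the narrowest. By class, 1 of the 5 promoter regions was overlapped (10.1% of all control promoter regions), 1 of the 2 over a start site (11.7% of all such), 1 of the 2 distal intergenic regions (9.78%) and 1 of the 2 downstream regions (6 of 120 over the list). With 9 regions on 3 chromosomes, several of them neighbours, the members were few and not independent.

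By gene, 4 of 4 members had a control promoter region, beside 14.9% of 20056 protein-coding genes, and 1 of 4, DPPA2, had a knockdown promoter region, beside 2.05%. Over all genes, 10.4% of those listed with a promoter in control had a promoter in the knockdown list too. With promoters limited to 1 kb of a start site, DPPA5 drops out and 3 of 4 remain in control. Any region was assigned to 4 of 4 in control (21.7% of protein-coding genes) and to 3 of 4 in the knockdown (3.99%). Genes with more control regions were more often in the knockdown list, at 9.97% of genes with 1 control region, 22.9% with 2 and 29.4% with 3. Each DPPA gene had 2 or 3 control regions, and 24.4% of genes with 2 or 3 had any knockdown region. DPPA2, DPPA4 and DPPA5, with 2 each, had a knockdown region, and DPPA3, with 3, had none. The counts are small and the genes were chosen with these lists known, so they are given as a description.

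The numbers of the replicate peaks add what single libraries called. Within each chromosome the numbers rose with position in every one of 8948 neighbouring pairs of control regions and 1308 pairs of knockdown regions, for both replicates. A number skipped between neighbouring regions is therefore a peak of 1 replicate that entered no listed region. The position of such a peak inside the gap is unknown, and a gap without one means that this library had no called peak there, provided that every number was used for a peak.

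In control, the gap from the DPPA2 start region to its upstream region (6657 bp) and that from the DPPA4 start region to its distal region (14177 bp) held 0 unlisted peaks in either replicate. Between the DPPA2 upstream region and the DPPA4 start region, a gap of 12461 bp with most of the DPPA4 gene in it, replicate 1 had 0 and replicate 2 had 1. Such values were common, since 44.7% of all control gaps in replicate 1 and 37.1% in replicate 2 held no unlisted peak, and the median gap held 1 in each. The gap of 36691 bp beyond the DPPA4 distal region, in which the knockdown region without overlap lies, held 1 unlisted peak in control replicate 1 and 2 in replicate 2. Whether any of these lay at that position is unknown.

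The knockdown numbers bear on the DPPA4 start site. The gap between the knockdown regions at the DPPA2 start site and at the DPPA4 distal site spans 39084 bp and takes in both control regions of DPPA2 and DPPA4 without a knockdown counterpart. Knockdown replicate 1 had 0 unlisted peaks in it and replicate 2 had 1. In knockdown replicate 1 no peak was thus called at the DPPA4 start site or between both genes, and in replicate 2 at most 1 peak lay anywhere in the gap. Over all gaps of the knockdown list, 17.5% in replicate 1 and 20.0% in replicate 2 held no unlisted peak, and the median gap, whatever its length, held 4 in each. In that list the median distance from a region to its nearest listed neighbour was 187574 bp, longer than the gap here. A shorter gap has room for fewer peaks, so these counts do not show that the stretch held fewer peaks than elsewhere. The gap of 8946 bp between both DPPA4 knockdown regions held 0 and 1.

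At DPPA5 the gap from the knockdown region to the next, at DDX43, spanned 47877 bp and held 1 unlisted peak in knockdown replicate 1 and 0 in replicate 2. It takes in the nearer control region of DPPA5, the gene itself and the control region at KHDC3L, so replicate 2 had no called peak at any of these. In control the gap of 9205 bp from the nearer DPPA5 region to KHDC3L, which holds the DPPA5 gene, had 0 unlisted peaks in replicate 1 and 1 in replicate 2. No peak was therefore called over the DPPA5 start site in control replicate 1. At DPPA3 the knockdown numbers say little, since the gap between listed knockdown regions spanned 828194 bp and held 11 and 10 unlisted peaks. In control the stretch of 35715 bp after the nearest DPPA3 region, with the gene in it, held 3 unlisted peaks in each replicate, while the 4741 bp between GDF3 and the first DPPA3 region held 0 in either.

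**Figure D3:**
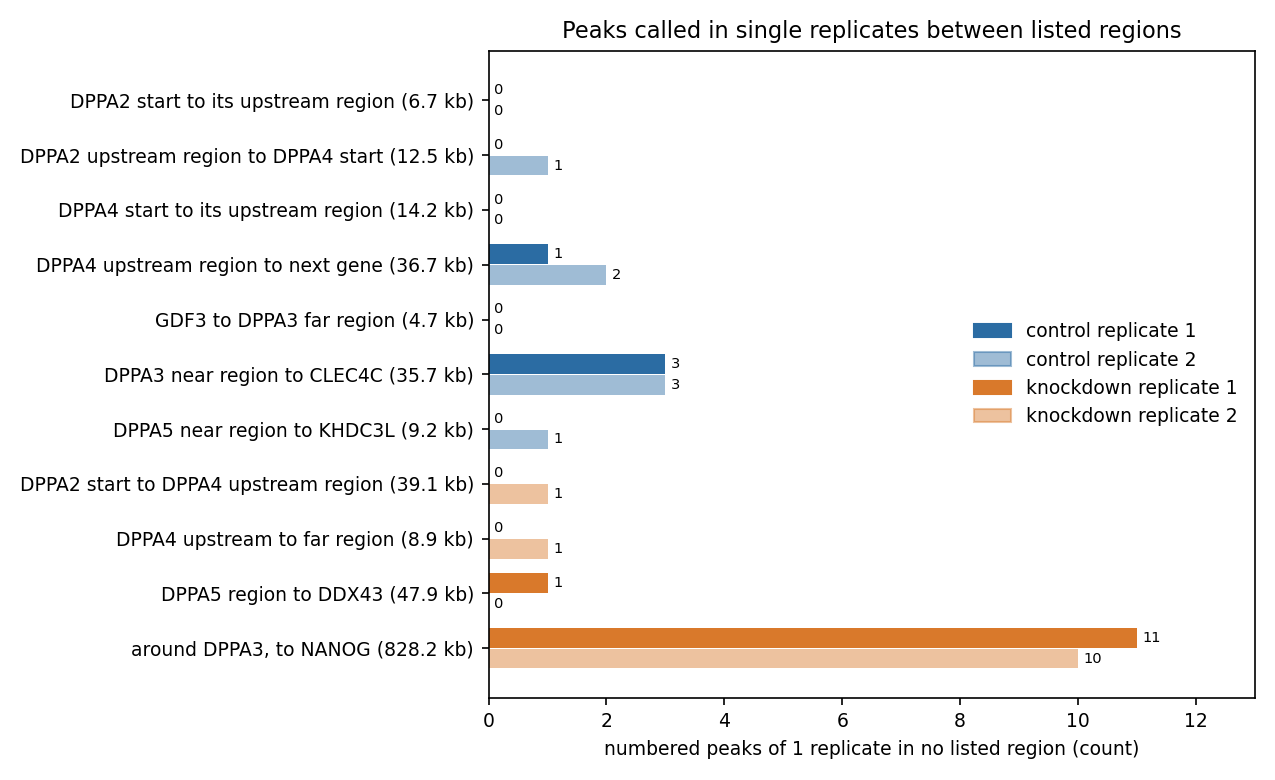
Number of peaks of single replicates that entered no listed region, on the x axis, for stretches between neighbouring listed regions around the DPPA genes on the y axis, with the length of each stretch. Bars are counts for control (blue) and knockdown (orange), dark for replicate 1 and pale for replicate 2; the stretch of 39.1 kb from the DPPA2 start to the DPPA4 upstream region holds 0 and 1 in the knockdown.

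Neighbours of DPPA5 also carried regions. KHDC3L, a KH domain gene of the maternal subcortical complex, had a control region over its start site (1721 bp). DDX43, an RNA helicase gene, had 3 control regions, of which that in its second intron was overlapped by a knockdown region of 1000 bp. Within 100 kb of DPPA5 there were 8 control and 2 knockdown regions, and both knockdown regions overlapped control. Within 100 kb of DPPA4 there were 6 control and 3 knockdown regions, with 2 of each overlapping. Other genes in that stretch were LOC100129989, with a control region of 971 bp, and H3P12, a histone pseudogene, with 1 of 1290 bp.

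In a list of KH domain genes and other maternal complex genes, 5 of 8 had a control promoter region (14.9% of protein-coding genes). They were KHDC1, KHDC3L, NLRP7, TLE6 and PADI6, and the list is not limited to relatives of DPPA5. NLRP7, a gene of the oocyte and early embryo, was the 1 of 8 with a knockdown region (3.99% of protein-coding genes), 723 bp wide and over the start site. KHDC1, KHDC3L and DPPA5 are neighbours on chromosome 6 and not independent cases. OOEP, the gene next to KHDC3L, had no region of its own.

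Among 11 genes of DNA methylation and of the partners of DPPA3, 6 had a control promoter region and 8 any control region, beside 14.9% and 21.7% of protein-coding genes. DNMT1, the maintenance methyltransferase, had a control region of 856 bp over its start site. UHRF1, the protein that DPPA3 restrains in mouse, and UHRF2 had none in either list. DNMT3B, a de novo methyltransferase, DNMT3L, its cofactor, and TET1, a 5-methylcytosine oxidase, were the 3 of 11 with a knockdown region, beside 3.99% of protein-coding genes. At TET1 the knockdown region lay 5596 bp upstream of a start site (1565 bp), where a control region of 2922 bp was also listed. A separate control region (3031 bp), at 68635381 to 68638411 and over a different TET1 start site, was not overlapped.

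Of 14 early embryo genes, of the kind that DPPA2 and DPPA4 act upstream of in mouse cells and among them DUX4, DUXA, ZSCAN4 and LEUTX, 0 had a promoter region in either list. The shares of all protein-coding genes with a promoter region were 14.9% in control and 2.05% in the knockdown, so few of 14 genes would have one at these shares. ARGFX, a homeobox gene of the early embryo, was the 1 of 14 with any region, in control (1572 bp, 5067 bp upstream) and in the knockdown (978 bp, 5295 bp upstream), beside 21.7% and 3.99% of protein-coding genes. Several of these genes have near-identical copies, where the assignment of reads is uncertain. Of 18 naive marker genes and pluripotency-associated names outside the 4 members, 7 had a control promoter region and 14 any control region, beside the same 14.9% and 21.7%. In the knockdown list the counts were 2 and 5, beside 2.05% and 3.99%. The latter 5 were KLF4, SUSD2, DNMT3L, NLRP7 and ARGFX. The 18 include DPPA2P4, a pseudogene with a control region, to which the protein-coding shares do not apply. GDF3 and KHDC3L have control regions within 100 kb of DPPA3 and DPPA5 and are not cases independent of these members. The lists share genes: NLRP7, KHDC3L, ARGFX, DNMT3L, SUSD2, TFCP2L1 and KLF17 are each counted in a list or marker set above as well.

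**Figure D4:**
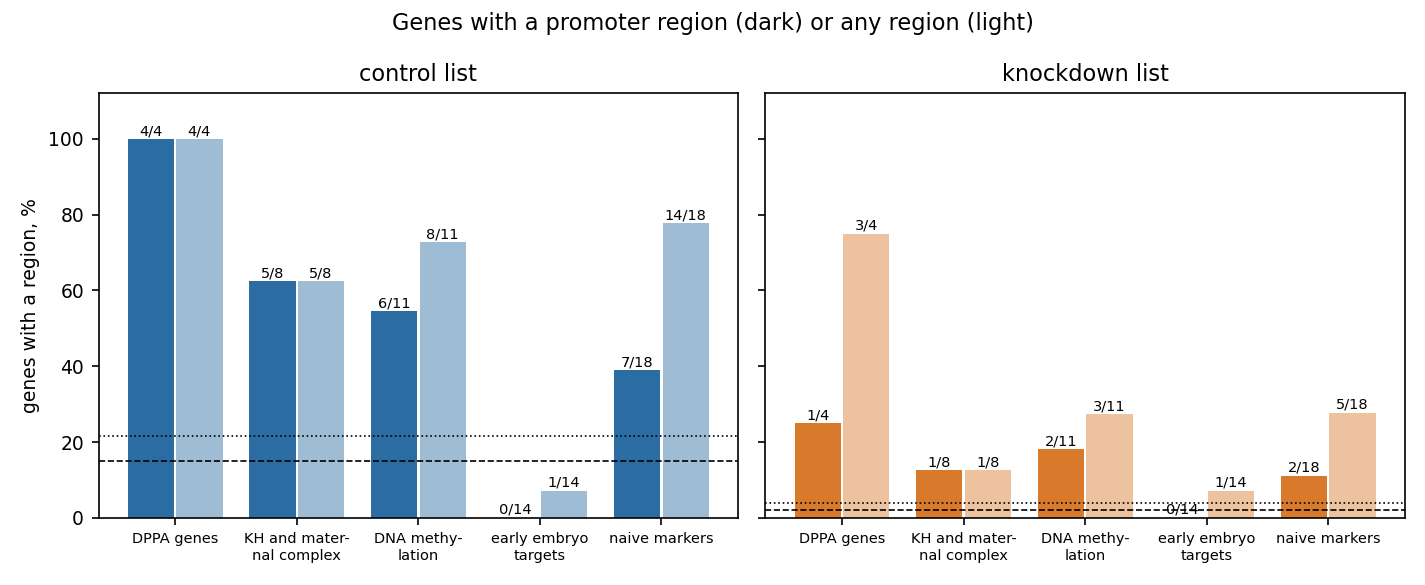
Percentage of the genes of each list with a promoter region (dark bars) or any region (pale bars) in the control list (left) and the knockdown list (right), with the counts above the bars. Dashed and dotted lines give the share of all protein-coding genes with a promoter region (14.9% and 2.05%) and with any region (21.7% and 3.99%); the early embryo genes have 0 of 14 promoter regions in both lists.

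The RefSeq table holds 23 pseudogenes of the 4 members. A control region was assigned to 1 of them, DPPA2P4 on chromosome 16, at 56690773 to 56692923 (2151 bp), 3936 bp from its start, and no knockdown region to any. Reads from a gene and its near-identical copies can be split by alignment, and the treatment of such reads by the authors is not stated in the labels.

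The genes whose pattern was most like that of each member were found by comparing 4 counts per gene, promoter and other regions in each list. For DPPA2, with 1 promoter and 1 other control region and 1 knockdown promoter region, 41 genes had the same counts, and those nearest in summed control width were NAV2, H2BC21 and TFE3. DPPA3 shared its counts with 54 genes, with LINC01816, NINJ2 and PSMG3 nearest, and DPPA5 with 46, with TRNP1, DAG1 and C17orf99 nearest. DPPA4, with 2 knockdown regions outside promoters, shared its counts with 2 genes, FAM102B and PRDM1, and DMXL1 came next with a difference of 1 region. Likeness here rests on counts in 2 lists alone.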

How the data were processed

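OGA CUT&Tag was measured in 4 libraries of H9 naive cells, 2 control and 2 OGA knockdown, grouped by sample title. Per the submitters' processing notes the build was GRCh38.p13, and DESeq2, edgeR, ChIPseeker 1.12.1, SEACR 1.3 and Bowtie2 2.3.4.3 are named without roles. The authors deposited 1 region list per group. Position, width, annotation, distance to the start site in bp and the merged replicate peaks stand on each line, per the file headers; depth is unknown. A repeated control line was used once, leaving 8977 regions from 8978 lines. Regions of both lists that share 1 bp or more count as overlapping, and promoters are regions so labelled, within 3 kb of a start site. Shares carry Wilson 95% intervals. Protein-coding genes and older symbols come from RefSeq GRCh38.p14. Overlaps planted in simulated data were recovered. The tools were scipy 1.17.1, pandas 2.3.3, numpy 2.4.6 and matplotlib 3.10.9 under Python 3.11.15.

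The members and lists were chosen with earlier results of these data known. Named genes were the members, genes with regions within 100 kb, genes of the compared lists with a region and the 3 genes nearest in counts. Genes named without a region were chosen after their values were seen. The reading of skipped peak numbers was also chosen after seeing the data. DESeq2 and edgeR were not run here, since the lists hold no counts.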

Additional observations from a re-analysis of the deposited data

How the results depend on the processing

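No paired analysis was possible because each list merges both replicates, and for the same reason no replicate could be left out. The 9 control regions and 4 control promoter genes stayed within 1.5 times under every alternative run for them: 8 regions at 1000 bp or more, 9 and 12 with gene spans extended by 10 and 25 kb, 3 genes with promoters within 1 kb. Small knockdown counts moved. With regions of at least 1000 bp, 1 knockdown region, 1 overlapped control region and 1 overlapping knockdown region were left, in place of 4, 3 and 3. Within 10 kb of the gene spans there were 2 knockdown regions. With any region counted, 3 genes in place of 1 were in the knockdown list. The other overlap settings gave 2 or 3.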
